A study of Mus musculus with 12 samples.

Results

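The genes described here are 10 genes of the smooth muscle contractile apparatus: Myh11, Acta2, Actg2, Cnn1, Tagln, Smtn, Lmod1, Synpo2, Myocd and Des. They were taken by symbol from the deposited table of raw counts, 10 of 33352 genes, and all 10 passed the filter on low counts that left 19016 genes for testing. Poly(A) RNA was sequenced from 12 libraries, 3 from each of 4 cell populations that were sorted from adult aorta together with its perivascular fat, the adipose tissue that surrounds the vessel. The populations carry the names Progenitor, Intermediate, SMC1 and SMC2, the last pair being labelled as smooth muscle cells. All 4 came from wild-type male mice of the outbred CD-1 strain, aged 13 weeks, with no treatment named in the labels. The antibodies and gates of the sort are not given in the sources used here. A gene on which cells were selected can therefore not be told apart from a gene that differs between them for another reason.

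Smooth muscle shortens when myosin thick filaments pull on actin thin filaments, and the thin filaments are anchored in dense bodies that intermediate filaments tie together. Contraction starts when myosin light chain kinase phosphorylates the regulatory light chain of myosin, and myosin phosphatase reverses it. Many genes of this apparatus are activated by serum response factor, a transcription factor that binds a DNA element called the CArG box, together with its coactivator myocardin, which is restricted to smooth and cardiac muscle. In the aorta these proteins mark the contractile smooth muscle of the media.

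The CArG box is written here as CC, then 6 bases that are each A or T, then GG, a pattern that reads the same on both strands. It was searched in promoter sequences from RefSeq (GRCm38.p6, from 250 bases before to 50 bases after the start of a gene), which hold an entry for 6 of the 10 genes; Myh11, Actg2, Tagln and Myocd have none. No exact match lay in the 6 promoters, and 2 of the 6, those of Acta2 and Lmod1, held a match with 1 mismatch. Among all 32851 promoters of the same length, 1.63% held an exact match and 21.1% a match with at most 1 mismatch. The 4 matches of Acta2 and Lmod1, each with 1 mismatch, are shown with the 10 bases of each match in capitals. Among the 10 genes, only these promoters held such a match, and none held the exact element.
Acta2, minus strand, chr19:34255438-34255467, match starting 84 bases before the gene start: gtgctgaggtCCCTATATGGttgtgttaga
Acta2, minus strand, chr19:34255388-34255417, match starting 34 bases before the gene start: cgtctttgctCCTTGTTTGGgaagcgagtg
Lmod1, plus strand, chr1:135324614-135324643, match starting 189 bases before the gene start: gcccccttgtCTTTAAAAGGctaaactgct
Lmod1, plus strand, chr1:135324639-135324668, match starting 164 bases before the gene start: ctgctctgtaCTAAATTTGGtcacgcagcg
Exact matches are shown for comparison from Srf, Myl9 and Cnn2. Srf encodes serum response factor itself, Myl9 the regulatory light chain of smooth muscle myosin, and Cnn2 is a paralogue of Cnn1. They were picked as examples from gene lists described below. By list, exact matches lay in promoters of 2 of 12 genes of myosin light chain phosphorylation and 3 of 15 of thin filament, dense body and adhesion. The counts were 4 of 19 for paralogues and 2 of 15 for serum response factor and related regulators. Fhl2, which was lower in both SMC populations than in Progenitor and Intermediate, also held exact matches.
Srf, minus strand, chr17:46556225-46556254, match starting 82 bases before the gene start: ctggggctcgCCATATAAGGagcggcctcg
Srf, minus strand, chr17:46556205-46556234, match starting 62 bases before the gene start: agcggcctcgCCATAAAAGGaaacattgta
Myl9, plus strand, chr2:156775293-156775322, match starting 161 bases before the gene start: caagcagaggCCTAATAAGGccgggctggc
Cnn2, plus strand, chr10:79988534-79988563, match starting 56 bases before the gene start: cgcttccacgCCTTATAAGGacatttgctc
Both Acta2 windows lie in an exon of an Acta2 transcript of GENCODE that starts further upstream, and the other windows overlap no exon there. These matches describe the letters of a short window. A promoter without one says nothing about binding of the factor, and elements further from the start or in introns were not searched.

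Levels are CPM, counts scaled to the size of each library, given for replicates 1, 2 and 3 in that order and as mean ± SD over n = 3 libraries. Differences are log2 changes ± standard error from edgeR's quasi-likelihood test, and a gene is said to be called at a Benjamini-Hochberg adjusted p below 0.05 over all genes tested. Library totals ran from 13258631 to 22647175 counts. Summed fibroblast markers were at 41055 to 59921 CPM in Progenitor and Intermediate and at 404 to 1791 CPM in the SMC libraries. The 10 genes, in contrast, were higher in the SMC libraries. Of all counts, they made up 3.39 ± 0.21% in SMC1, 2.64 ± 0.199% in SMC2, 0.0514 ± 0.00859% in Intermediate and 0.0455 ± 0.0172% in Progenitor. In bulk libraries such as these, fewer cells of a type and less RNA per cell cannot be told apart. The replicate numbers are not said to mark separate animals, so p-values reflect only how far these libraries spread, and that spread may be technical.

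All 10 genes were higher in both SMC populations than in Progenitor and Intermediate. In SMC1 minus Progenitor 10 of 10 were called higher, with a median log2 change of 6.19, where 25.3% of all genes tested were called higher and the median of all genes was -0.0049. The other 3 comparisons, which share their groups with the first and with each other, gave 10 of 10 as well. Their medians were 5.35 in SMC2 minus Progenitor (23.1% of all genes called higher), 5.99 in SMC1 minus Intermediate (19.7%) and 5.05 in SMC2 minus Intermediate (21.4%). The libraries of the groups compared did not overlap for any of the 10 genes in these 4 comparisons. The share of all genes whose groups did not overlap and were higher in the SMC population was 28.7% in SMC1 minus Progenitor and 27.5%, 25.8% and 26.4% in the others in the order above. All of these calls held under each of the 18 alternatives computed.

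**Figure D1:**
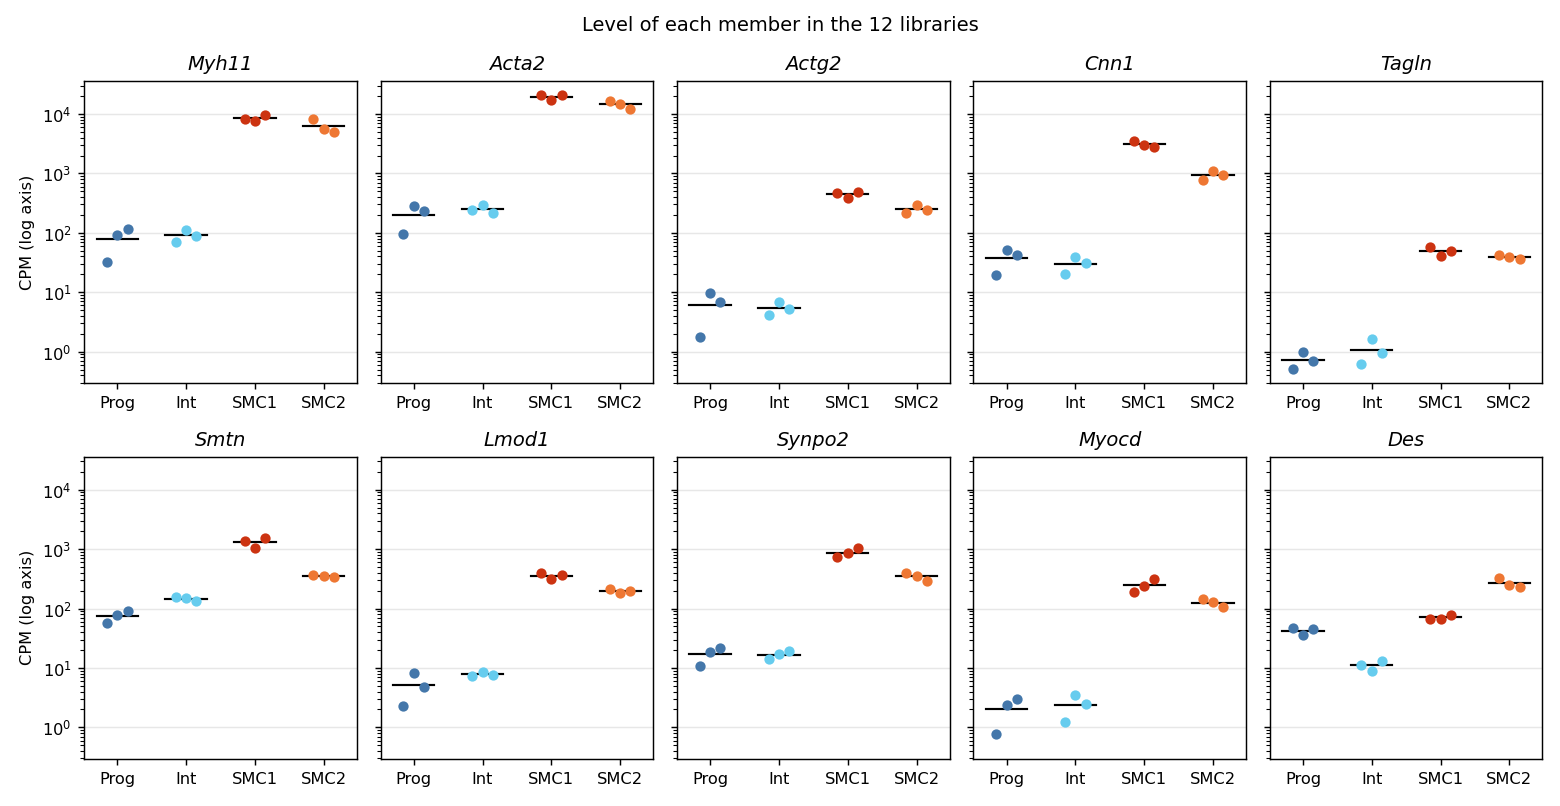
Level of each of the 10 genes in CPM (log axis) in the 12 libraries, 1 point per library and a line at the mean of each group of 3. The SMC1 and SMC2 points lie above the Progenitor (Prog) and Intermediate (Int) points in every panel, and Des has its highest points in SMC2.

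The motor of the thick filament is encoded by Myh11, the smooth muscle myosin heavy chain (chromosome 16, 14194535 to 14291372 in GRCm38, minus strand). Myh11 was at 8092, 7617 and 9664 CPM in SMC1 (8457 ± 1071) and at 8336, 5636 and 5052 CPM in SMC2 (6341 ± 1752). It was at 31.9, 91.5 and 114 CPM in Progenitor (79.3 ± 42.6) and at 69.97, 112 and 88.5 CPM in Intermediate (90.3 ± 21.2). The SMC libraries were all far above the rest, and the highest SMC2 library lay within the range of SMC1. The log2 change was 6.74 ± 0.43 in SMC1 minus Progenitor (adjusted p = 5.07e-10) and -0.42 ± 0.34 in SMC2 minus SMC1 (adjusted p = 0.362). Progenitor replicate 1 was the lowest library, and the other 2 Progenitor libraries lay within or just above the Intermediate range.

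Thin filaments are built from the actins Acta2, the main isoform of vascular smooth muscle (chromosome 19, 34241090 to 34255590, minus strand), and Actg2, the isoform best known from gut and bladder (chromosome 6, 83512905 to 83536265, minus strand). Acta2 was at 21050.2, 16910.3 and 20494 CPM in SMC1 (19485 ± 2247) and at 16652, 14942 and 11929 CPM in SMC2 (14508 ± 2391). It was at 96.8, 282 and 229.6 CPM in Progenitor (203 ± 95.5) and at 243, 299 and 214 CPM in Intermediate (252 ± 43.2). Every SMC2 library was below every SMC1 library, but the log2 change of -0.43 ± 0.29 was not called (adjusted p = 0.268). On the scale of CPM per kb of exon, which allows genes to be compared, Acta2 had a level of 8873 ± 1023 in SMC1 and 6606 ± 1089 in SMC2. It ranked 2nd of 19008 genes by its mean level per kb in SMC1 and 1st in SMC2, against 525th in Progenitor and 377th in Intermediate. The level of Myh11 per kb was 12.6% of that of Acta2 in SMC1 and 12.5% in SMC2, and also 11.1% in Progenitor and 10.4% in Intermediate, as means of the percentages of 3 libraries. The mean log2 ratio was -3.00 ± 0.15, -3.01 ± 0.21, -3.20 ± 0.35 and -3.29 ± 0.27 in the same order, so the differences in this ratio were no larger than the SD within Progenitor.

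Actg2 was at 459, 383 and 486 CPM in SMC1 (443 ± 53.2) and at 215, 295 and 246 CPM in SMC2 (252 ± 40.5). It was at 1.73, 9.60 and 6.95 CPM in Progenitor (6.09 ± 4.004) and at 4.16, 6.84 and 5.24 CPM in Intermediate (5.42 ± 1.35). The SMC1 and SMC2 libraries did not overlap, and the log2 change of -0.81 ± 0.35 between them missed the threshold (adjusted p = 0.0866). It passed with no filter on low counts (2.61e-04), with the replicate number as a block (0.0386), with the 2 groups alone (0.0038), without Progenitor replicate 1 (0.00145) and without Progenitor replicate 2 (0.048), all as edgeR adjusted p. Per kb of exon, Actg2 made up 3.10 ± 0.126% of the level of both actins together in SMC1 and 2.44 ± 0.568% in SMC2. The share was 3.71 ± 1.11% in Progenitor and 2.94 ± 0.516% in Intermediate. None of the 6 pairs of groups was called in a two-sided exact permutation test, with adjusted p from 0.48 to 0.9, but 3 libraries against 3 cannot give a p below 0.1.

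Cnn1 encodes calponin, which binds thin filaments and slows the actomyosin ATPase (chromosome 9, 22099216 to 22109630, plus strand). It was at 3450.4, 2961 and 2808 CPM in SMC1 (3073 ± 335) and at 767, 1076 and 933 CPM in SMC2 (925 ± 155). It was at 19.3, 52.1 and 42.1 CPM in Progenitor (37.8 ± 16.8) and at 19.9, 39.8 and 31.5 CPM in Intermediate (30.4 ± 10.01). All SMC2 libraries were below all SMC1 libraries, 3.32-fold in the fitted means, with a log2 change of -1.73 ± 0.30 (adjusted p = 1.30e-04). The change in SMC2 minus Progenitor was 4.62 on the log2 scale, and that in SMC1 minus Progenitor 6.35. In rank by mean level per kb, Cnn1 stood 22nd in SMC1 and 83rd in SMC2.

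Smtn encodes smoothelin, an actin-associated protein of fully contractile smooth muscle (chromosome 11, 3517523 to 3540612, minus strand). It was at 1391, 1028 and 1549 CPM in SMC1 (1323 ± 267), 360.2, 354 and 344 CPM in SMC2 (353 ± 8.43) and 155, 151 and 133 CPM in Intermediate (146 ± 11.8). In Progenitor it was at 56.5, 77.5 and 91.7 CPM (75.2 ± 17.7). No 2 groups overlapped, so the order of the levels was SMC1, SMC2, Intermediate and Progenitor, and each neighbouring pair was called. The log2 change was -1.91 ± 0.20 in SMC2 minus SMC1 (adjusted p = 2.58e-07), 1.27 ± 0.20 in SMC2 minus Intermediate (1.93e-05) and 0.96 ± 0.20 in Intermediate minus Progenitor (0.00142). Per kb of exon, the level of Smtn was 3.38% of that of Acta2 in SMC1 and 1.24% in SMC2, against 29.4% in Intermediate and 21.01% in Progenitor. Of the exon bases of Smtn, 16.3% overlap another annotated gene, Gm11946, whose mean did not exceed 1.33 CPM in any group.

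Tagln encodes transgelin, also known as SM22, an actin-bundling protein and a common marker of smooth muscle (chromosome 9, 45929619 to 45936058, minus strand). It was at 58.2, 41.2 and 49.0 CPM in SMC1 (49.5 ± 8.49) and at 42.3, 39.0 and 35.6 CPM in SMC2 (38.9 ± 3.35). Raw counts were 11, 15 and 11 in Progenitor and 10, 26 and 15 in Intermediate, which is 0.732 ± 0.251 and 1.07 ± 0.515 CPM. The SMC groups overlapped and their log2 change of -0.34 ± 0.20 was not called (adjusted p = 0.189). Of its exon bases, 67.9% overlap genes on the opposite strand, namely 62.4% the antisense gene Gm48529 and 5.43% Pcsk7. The library kit does not mark strand and how shared reads were counted is not stated, so the level of Tagln is uncertain. Its level per kb is therefore not set beside those of the other genes. Tagln stays in the sums, medians, counts of calls, likeness ranks and figures that cover the 10 genes. Gm48529 was listed at a mean of 1.28 CPM in SMC1 and at 0.42 to 0.528 CPM in the other groups.

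Lmod1 encodes leiomodin 1, which nucleates actin filaments (chromosome 1, 135324807 to 135368065, plus strand). It was at 389.8, 319 and 367 CPM in SMC1 (359 ± 36.4), 213, 180.2 and 194 CPM in SMC2 (196 ± 16.4), 7.33, 8.60 and 7.66 CPM in Intermediate (7.87 ± 0.659) and 2.28, 8.27 and 4.74 CPM in Progenitor (5.09 ± 3.01). The SMC groups did not overlap and differed by -0.87 ± 0.25 on the log2 scale (adjusted p = 0.0121). Synpo2 encodes synaptopodin 2, an actin-bundling protein of dense bodies and Z-discs (chromosome 3, 123076519 to 123236149, minus strand). It was at 747, 850.1 and 1025 CPM in SMC1 (874 ± 140.3), 394, 351 and 294 CPM in SMC2 (347 ± 50.2), 14.0, 17.3 and 19.0 CPM in Intermediate (16.8 ± 2.54) and 10.8, 18.7 and 21.9 CPM in Progenitor (17.1 ± 5.72). Again no SMC2 library reached the SMC1 range, and the log2 change was -1.33 ± 0.22 (adjusted p = 6.90e-05).

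Des encodes desmin, the intermediate filament protein of muscle, and was the exception to this order (chromosome 1, 75360329 to 75368579, plus strand). It was at 322, 249 and 228 CPM in SMC2 (267 ± 49.6), 67.4, 66.3 and 79.1 CPM in SMC1 (70.9 ± 7.09), 46.2, 35.9 and 44.6 CPM in Progenitor (42.2 ± 5.52) and 11.4, 8.85 and 13.1 CPM in Intermediate (11.1 ± 2.13). No 2 groups overlapped, and each neighbouring pair in this order was called. The log2 change was 1.91 ± 0.18 in SMC2 minus SMC1 (adjusted p = 6.57e-08), 0.75 ± 0.18 in SMC1 minus Progenitor (0.00175) and -1.93 ± 0.19 in Intermediate minus Progenitor (5.32e-07). Per kb of exon, the level of Des relative to Acta2 was 15.6% in Progenitor, 2.68% in Intermediate, 1.08% in SMC2 and 0.214% in SMC1. The Progenitor libraries stood at 27.9%, 7.45% and 11.4%, and their mean without replicate 1 was 9.41%. Of the exon bases of Des, 5.86% overlap the antisense gene Gm15179, which was at 1.87 CPM in SMC2 and at 0.965 CPM or less elsewhere.

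Sums of markers of other cell types differed between the populations, some higher and some lower in SMC2 than in SMC1. Summed adipocyte markers were at 197 to 241 CPM in SMC2 and at no more than 10.6 CPM in any other library, and Schwann cell markers at 45.7 to 93.2 CPM against at most 27.2. Desmin is also made in striated muscle. The 9 striated muscle markers found in the table, of 10 sought, summed to 31.6 to 35.4 CPM in SMC2, 11.6 to 13.7 CPM in SMC1, 10.5 to 13.3 CPM in Progenitor and 7.64 to 13.5 CPM in Intermediate, where Myog had no count. The actins Acta1 and Actc1 made up 22.4 CPM of the SMC2 mean and 3.14 CPM of the SMC1 mean. The other 7 markers summed to means of 11.4 CPM in SMC2, 9.65 in SMC1, 10.8 in Progenitor and 9.4 in Intermediate. Desmin is found in pericytes too, and the 6 pericyte markers summed to 1182 to 1498 CPM in SMC2, 2332 to 2961 in SMC1, 540 to 564 in Intermediate and 168 to 262 in Progenitor. Single pericyte markers went both ways in SMC2 minus SMC1. Notch3 (51.6 and 432 CPM in SMC1 and SMC2, log2 change 3.07 ± 0.23) and Higd1b (1.66 and 68.8 CPM, 5.35 ± 0.24) were higher in SMC2, while Rgs5, Cspg4, Abcc9 and Kcnj8 were lower. Endothelial markers summed to 336 to 426 CPM in SMC1 and 53.5 to 138 CPM in SMC2. Fibroblast markers summed to 1022 to 1791 CPM in SMC1 and 404 to 833 CPM in SMC2, so both sums were lower in SMC2. Of all genes, 18.1% were called lower there, as were 5 of 6 endothelial and 3 of 7 fibroblast markers. The other 4 fibroblast markers were not called. Col1a1 had means of 797 CPM in SMC1 and 92.1 in SMC2, while Dcn (356 and 424) and Dpt (20.7 and 25.4) were not lower. The part of these other cell types in the values of Des and of the other 9 genes was not tested.

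**Figure D2:**
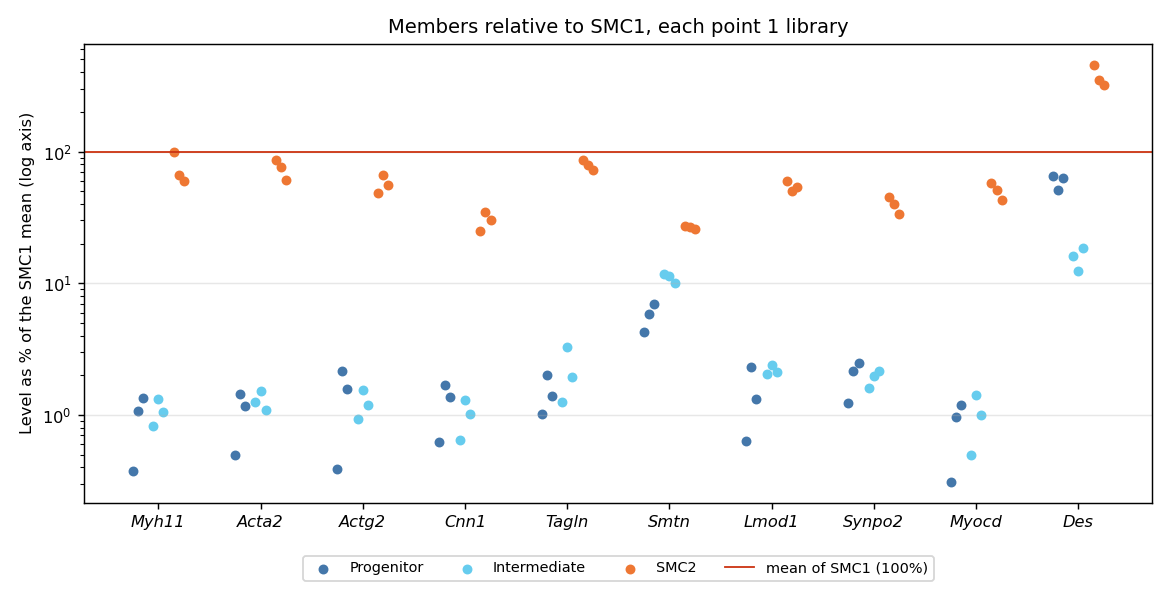
Level of each gene in single Progenitor, Intermediate and SMC2 libraries as a percentage of its SMC1 mean (log axis, line at 100%). For 8 of the 10 genes the Progenitor and Intermediate means lie between 0.824% and 2.19%, Smtn reaches 11.04% in Intermediate, and Des is above the line in SMC2.

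Myocd encodes myocardin (chromosome 11, 65176561 to 65269989, minus strand). It had the highest log2 change of the 10 genes in SMC1 minus Progenitor, 6.97 ± 0.41 (adjusted p = 5.05e-10). Myh11 (6.74 ± 0.43) and Acta2 (6.59 ± 0.37) were close behind. In SMC2 minus Progenitor Myocd, at 5.99 ± 0.40, was below Myh11 (6.32 ± 0.42) and Acta2 (6.16 ± 0.36). Myocd was at 187, 243 and 316 CPM in SMC1 (249 ± 64.8) and at 143, 127 and 107 CPM in SMC2 (126 ± 18.0). The raw counts were 17, 36 and 47 in Progenitor and 20, 56 and 39 in Intermediate, which is 2.05 ± 1.14 and 2.42 ± 1.14 CPM. Every Progenitor and Intermediate library thus held Myocd counts, and the group means were 0.824% and 0.972% of the SMC1 mean. SMC2 was lower than SMC1 with no overlap, by -0.98 ± 0.30 on the log2 scale (adjusted p = 0.0179). This call was lost with the DESeq2 test (0.0858) and without SMC1 replicate 3 (0.0827), SMC2 replicate 2 (0.0574) or SMC2 replicate 3 (0.0754), where the log2 change lay between -0.997 and -0.786.

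Between the SMC populations, 5 of the 10 genes were lower in SMC2 (Cnn1, Smtn, Lmod1, Synpo2 and Myocd), 1 was higher (Des) and 4 were not called (Myh11, Acta2, Actg2 and Tagln). Of all genes tested, 18.1% were called lower and 16.5% higher. The median log2 change of the 10 genes was -0.84, beside -0.0028 for all genes. The libraries did not overlap for 7 of the lower genes, the 5 called ones with Acta2 and Actg2, and for Des, against 24.7% (lower) and 21.6% (higher) of all genes. The number of the 10 genes called was 6, and it was 5 with DESeq2 and 7 with no filter, with the replicate block or with the 2 groups alone. Upper-quartile scaling raised the median of all genes to 0.107 and left these 6 calls in place.

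**Figure D3:**
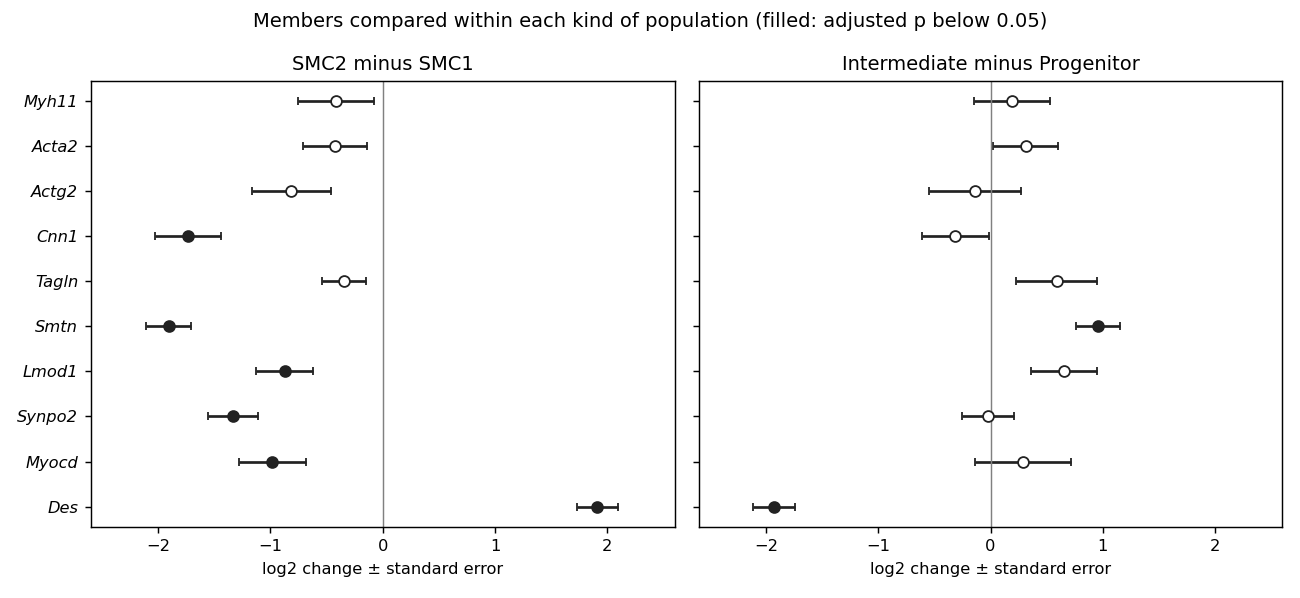
Log2 change ± standard error of each gene in SMC2 minus SMC1 (left) and Intermediate minus Progenitor (right), filled where the adjusted p is below 0.05. On the left 9 of the 10 values are below 0, with Cnn1 and Smtn at -1.73 and -1.91 and Des at 1.91; on the right Smtn (0.96) and Des (-1.93) are filled.

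In Intermediate minus Progenitor 8 of the 10 genes were not called. Smtn was higher and Des lower, where 12.7% of all genes were called higher and 9.46% lower, and these were also the genes without overlap (21.8% and 16.9% of all genes). Mesothelial markers summed to 145 to 325 CPM in Intermediate and 35.7 to 60.2 CPM in Progenitor, and mitochondrial genes took 0.542 ± 0.00239% and 1.17 ± 0.30% of counts. Of the 7 mesothelial markers, 6 were called higher in Intermediate. The exception was Wt1, at 5.70 CPM in Intermediate and 17.9 CPM in Progenitor, which was called lower (-1.65 ± 0.42, adjusted p = 0.0102). The part of these differences in the values of Smtn and Des was not tested. With upper-quartile scaling the share of calls that were higher was 39.2% in place of 57.3%, and the median of all genes moved from 0.0783 to -0.08. In SMC1 minus Progenitor the same scaling moved the share from 52.3% to 41.3% and the median to -0.187. Smtn and Des kept their direction and call under each alternative. The log2 change was 0.19 ± 0.34 for Myh11 (adjusted p = 0.739), 0.31 ± 0.29 for Acta2 (0.474) and 0.29 ± 0.43 for Myocd (0.674). Lmod1, at 0.66 ± 0.29 (adjusted p = 0.122), was called without Progenitor replicate 2, at 1.21 (0.00261). The values for the remaining 4 genes were 0.59 ± 0.36 for Tagln, -0.02 ± 0.23 for Synpo2, -0.14 ± 0.41 for Actg2 and -0.31 ± 0.30 for Cnn1.

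The low levels in Progenitor varied together among libraries. Progenitor replicate 1 was the lowest of 3 for 9 of the 10 genes, with a median deviation of -0.89 on the log2 scale from the group mean, and the highest for Des. Its summed pericyte markers (168 CPM, against 208 and 262) and endothelial markers (173, against 192 and 241) were also the lowest of the group. Its summed fibroblast markers were the highest (59921 CPM, against 50284 and 48662). In Progenitor the largest part of the endothelial sum was Tek (mean 112.8 CPM), and that of the pericyte sum Abcc9 (102.3) and Kcnj8 (66.5). Without Progenitor replicate 1 the log2 change in Intermediate minus Progenitor was -0.17 for Myh11 and -0.14 for Myocd. Intermediate replicate 1 was the lowest of its group for 7 genes. In SMC1, replicate 2 was below the group mean for all 10 genes, by a median of -0.15, and in SMC2 replicate 3 was the lowest for 7 genes and replicate 1 the highest for 8. Such counts were made for the 10 genes only, with no share over all genes to set beside them. Whether these shared deviations come from the mix of cells, or extend to other genes of the same libraries, was not tested.

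By root mean square difference of log2 CPM centred over the 12 libraries, the genes most like Myocd among 9017 candidates were Myh11 (0.293), Xirp1 (0.331), Susd5 (0.345), Mcam (0.352) and Myom1 (0.367). The nearest to Myh11 were Xirp1 (0.19), Susd5 (0.205), Mcam (0.239), Acta2 (0.243) and Myocd. Xirp1 and Myom1 are better known from striated muscle, where they encode an actin-binding protein of adhesion sites and an M-band protein. Xirp1 had mean levels of 260.0 (SMC1) and 188 CPM (SMC2), and of 2.47 CPM in Progenitor and 2.24 CPM in Intermediate. Actg2, Acta2, Cnn1, Tagln, Lmod1 and Synpo2 stood 6th, 8th, 11th, 14th, 16th and 20th in likeness to Myocd, but Smtn stood 274th and Des 467th. For Des the nearest genes were As3mt (0.449), Ppp1r9a (0.471), Cttnbp2 (0.522), Nmnat2 (0.556) and Enpep (0.558), and the nearest of the other 9 genes, Smtn, stood 4589th. The 12 libraries fall into 4 groups, so they are not independent points, and the measure is a description.

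Most genes that switch contraction on and off were higher in the SMC populations as well. Of 13 genes of myosin light chain phosphorylation, 11 were called higher and 1 lower in SMC1 minus Progenitor (median log2 change 2.51). In SMC2 minus Progenitor 10 were higher and 1 lower. The shares of all genes called higher were 25.3% and 23.1% in these comparisons. Mylk, the myosin light chain kinase, was at 705 ± 59.5 CPM in SMC1, 955 ± 190.2 in SMC2, 31.0 ± 5.21 in Intermediate and 17.2 ± 4.83 in Progenitor. Myl9 stood at 6864 ± 1166 CPM in SMC2, 6059.7 ± 645 in SMC1, 184 ± 21.7 in Intermediate and 134 ± 48.9 in Progenitor. The changes in SMC1 minus Progenitor were 5.36 ± 0.25 for Mylk, 5.50 ± 0.29 for Myl9, 5.07 ± 0.28 for Ppp1r14a, which encodes an inhibitor of myosin phosphatase, and 3.97 ± 0.23 for Ppp1r12a, its targeting subunit. The gene called lower was Myl12b, a regulatory light chain found in many cell types (-0.64 ± 0.17). In SMC2 minus SMC1, 16.5% of all genes were called higher and 18.1% lower. Of the 13 genes, 2 were higher, 2 lower and 9 not called, with a median of -0.16. The counts were 1 higher and 1 lower without SMC1 replicate 1, 1 higher and 3 lower without SMC2 replicate 1, 2 higher and 1 lower without SMC2 replicate 2, and 3 higher and 1 lower with upper-quartile scaling or the 2 groups alone. Mylk, at 0.44 ± 0.21 (adjusted p = 0.112), and Myl9, at 0.18 ± 0.24 (0.589), were among those not called. Mylk was called with upper-quartile scaling (0.0491) and with the 2 groups alone (0.03).

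All 20 genes of a list of thin filament, dense body and adhesion proteins were called higher in SMC1 minus Progenitor (median 3.70). In SMC2 minus Progenitor 18 were called higher and Svil was lower. Among all genes, 25.3% and 23.1% were called higher in these comparisons. Tpm2, a smooth muscle tropomyosin, rose by 6.07 ± 0.28 and Pdlim3, an actinin-binding protein, by 5.30 ± 0.22 in SMC1 minus Progenitor. In SMC2 minus SMC1 this list divided, with 9 genes lower, 4 higher and 7 not called (median -0.39). Among all genes, 18.1% were called lower and 16.5% higher in that comparison. Itga8, an integrin of smooth muscle, was at 7267 ± 1310 CPM in SMC1 and 803 ± 224 CPM in SMC2, a log2 change of -3.18 ± 0.30 (adjusted p = 7.03e-08). Svil (-1.85 ± 0.18) and Pdlim7 (-1.59 ± 0.18) were lower too. Among the higher genes were Synm (1.36 ± 0.20), Tpm1 (0.82 ± 0.19) and Ldb3 (0.66 ± 0.24). Synm encodes synemin, an intermediate filament protein that assembles with desmin, and stood at 213 ± 54.4 CPM in SMC2 and 82.8 ± 15.7 CPM in SMC1. The call of Ldb3 was lost when single libraries were left out, with an adjusted p of up to 0.181, reached without SMC2 replicate 1. In Intermediate minus Progenitor 12.7% of all genes were called higher. Of the 20 genes, 9 were not called and 11 were higher (median 0.58), among them Nexn (1.18 ± 0.18), Actn1 (1.80 ± 0.30) and Svil (0.83 ± 0.17). The count of higher genes was 4 without Progenitor replicate 1, 6 without Intermediate replicate 1 or 2, and 7 without any 1 of the SMC1 libraries or SMC2 replicate 2.

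Paralogues of the 10 genes served to show whether a whole family moved. Of 22 sought, 19 were tested, and 15 were higher and 1 lower in SMC1 minus Progenitor, with a median of 1.5. In that comparison 25.3% of all genes were called higher. Among the 15 higher genes were the cytoplasmic actins Actb (1.53 ± 0.21) and Actg1 (1.08 ± 0.22). Vim (1.39 ± 0.22), listed for Des, and Synpo (3.87 ± 0.27), listed for Synpo2, were also among them. The calponin paralogue Cnn2 was at 440.5 ± 53.1 CPM in SMC1 and 410.1 ± 65.4 in SMC2, and Cnn3 at 1287 ± 162 and 533 ± 68.5. Thus in SMC2 minus SMC1 Cnn3 was lower (-1.27 ± 0.18, adjusted p = 9.08e-06), as Cnn1 was. Myh10, a nonmuscle myosin heavy chain, was at 513 ± 93.4 CPM in SMC1, 167 ± 23.8 in Intermediate, 62.0 ± 21.6 in Progenitor and 61.9 ± 15.4 in SMC2. Its log2 change in SMC2 minus SMC1 was -3.05 ± 0.26 (adjusted p = 2.50e-08), while that of Myh11 was not called. The skeletal and cardiac actins Acta1 and Actc1 had means of 11.5 ± 2.58 and 10.9 ± 0.49 CPM in SMC2, against no more than 2.48 and 0.666 CPM elsewhere, with log2 changes of 2.22 ± 0.29 and 4.01 ± 0.54 in SMC2 minus SMC1. Both are also among the striated muscle markers summed above. Smtnl2, related to Smtn, ran the other way, at 23.0 ± 5.39 CPM in Intermediate, 10.4 ± 2.66 in Progenitor, 3.80 ± 1.37 in SMC2 and 1.75 ± 0.333 in SMC1.

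Of 23 genes for serum response factor, its coactivators and related regulators, 12 were higher and 6 lower in each SMC population against Progenitor. Against Intermediate 10 were higher and 7 lower in each. The share of all genes called higher was 25.3% in SMC1 and 23.1% in SMC2 against Progenitor, and 19.7% and 21.4% against Intermediate. Higher genes made up 52.3%, 51.6%, 47.5% and 48.1% of all genes called, in the same order. Srf, singled out after its values were seen, was at 43.4 ± 9.29 CPM in SMC1, 39.6 ± 7.21 in SMC2, 17.3 ± 0.518 in Intermediate and 17.2 ± 3.35 in Progenitor. Its log2 change was 1.34 ± 0.19 in SMC1 minus Progenitor (adjusted p = 7.79e-06) and -0.13 ± 0.19 in SMC2 minus SMC1 (0.63). The myocardin-related coactivators, which are expressed in many cell types, were present in all groups. Mrtfa was at 11.9 to 13.9 CPM in Progenitor and Intermediate and at 28.8 and 29.9 CPM in the SMC groups, as group means, and Mrtfb at 11.1, 16.2, 22.4 and 19.99 CPM in the order Progenitor, Intermediate, SMC1 and SMC2. In SMC1 minus Progenitor Mrtfa rose by 1.28 ± 0.21 and Mrtfb by 1.02 ± 0.20.

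Mef2c, which encodes a transcription factor of muscle, had a level of 29.0 ± 1.34 CPM in Progenitor, 302 ± 25.4 CPM in SMC1 and 595 ± 163 CPM in SMC2, and was higher in SMC2 than in SMC1 (0.98 ± 0.19, adjusted p = 4.36e-04). The Notch targets Heyl and Hey2 were higher in both SMC groups, by 2.96 ± 0.23 and 3.37 ± 0.24 in SMC1 minus Progenitor. Prdm6, a regulator of smooth muscle, and Gata6 were lower in SMC2 than in SMC1, by -2.66 ± 0.22 and -2.16 ± 0.22. Among the genes lower in SMC1 than in Progenitor were Fhl2 (-1.92 ± 0.19), Klf5 (-1.20 ± 0.19), Prrx1 (-1.59 ± 0.18) and Klf4 (-1.53 ± 0.26). In Intermediate minus Progenitor 12.7% of all genes were called higher. Of the 23 genes, 11 were not called and 12 were higher (median 0.62). Among the 12 were Klf5 (1.76 ± 0.18), Heyl (2.09 ± 0.22), Hey2 (1.94 ± 0.23) and Fhl2 (1.5 ± 0.19). Without SMC2 replicate 2 the count of higher genes was 7. Myocd was not called in that comparison.

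**Figure D4:**
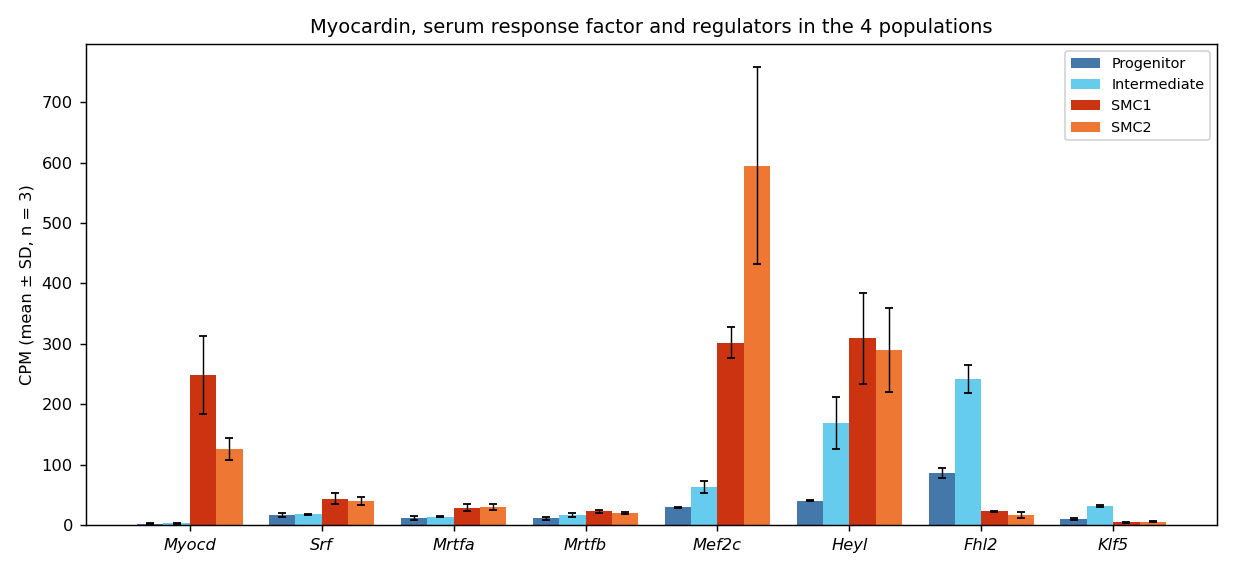
Mean CPM ± SD over 3 libraries of Myocd, Srf and 6 related regulators in the 4 populations, as bars from 0. Myocd is at 2.05 CPM in Progenitor and 249 CPM in SMC1, Srf at 17.2 and 43.4 CPM, and Fhl2 is highest in Intermediate.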

How the data were processed

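The authors deposited raw read counts per gene and library, which were used for all tests, and 2 tables made from them. One is a signal, the counts divided by size factors by the authors, and recomputed factors differed by at most 5.04e-12. The other contains regularized log2 values, also the authors' own. In the authors' deposited table of log2 values the differences of the 10 genes had the same sign as the fitted change in 59 of 60 cases, including 48 of 48 called ones, and differed from it by at most 0.644. Per the submitters' processing notes, STAR 2.5.2a, DESeq2 1.26.0 and mm10 were used; the counting program and its annotation are not given in the sources used here. Per the labels' protocols, libraries came from a SMART-Seq kit with poly(A) selection. Amplified fragments are not independent molecules, and replicates differed by more than sampling noise (chi-square per degree of freedom at least 8.17).

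Symbols missing from 12104 rows, coordinates and exon lengths came from GENCODE M21 (GRCm38), which held 33323 of the identifiers. Counts were fitted in edgeR 4.0.16 (limma 3.58.1, R 4.3.3) with TMM scaling (factors 0.827 to 1.264), filterByExpr, a mean per group over all 12 libraries, robust dispersions (common biological coefficient of variation 0.206, 8 residual degrees of freedom), the two-sided quasi-likelihood F test and Benjamini-Hochberg adjustment at 0.05. Standard errors are log2 changes over the square root of F, while CPM uses TMM-scaled totals, and log2 CPM a prior count of 2. The code was tested on simulated data.

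The 10 genes and the lists beside them were chosen with earlier results of these data known. From each list up to 4 genes with the smallest adjusted p, and genes called against the majority, were named per comparison, and paralogues above 4 log2 CPM in a group could be named. A gene that this rule names is not reported here. For Myocd, Myh11 and Des the 5 most alike genes were taken among named genes reaching 4 log2 CPM in a group. Alternatives were median-of-ratios and upper-quartile factors, no filter, DESeq2 1.42.0, the replicate block, the 2 groups alone and leaving out each library. To check pairing, each library's deviation from its group mean was correlated with that of the library of the same number. The correlations were 0.171, 0.191 and 0.170 between Intermediate and Progenitor, each over 0.1, so by this measure the numbers pair these libraries, and every other comparison had at least 1 pair below 0.1. The values printed come from the fit without a block, and the fit with the block is an alternative.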

Additional observations from a re-analysis of the deposited data

How the results depend on the processing

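Of the 60 changes of the 10 genes (6 comparisons), 51 kept their direction and their side of the threshold under all 18 alternatives. The exceptions were Actg2 and Myocd in SMC2 minus SMC1 and, in Intermediate minus Progenitor, the 7 genes other than Smtn, Des and Tagln. With 1 library left out, log2 changes in Intermediate minus Progenitor ran from -0.17 to 0.56 for Myh11, -0.0049 to 0.64 for Acta2, -0.59 to 0.38 for Actg2, -0.62 to 0.0043 for Cnn1, -0.26 to 0.21 for Synpo2, -0.14 to 0.70 for Myocd and 0.29 to 1.21 for Lmod1. The direction of the first 6 was thus not settled, and the cause was not tested. The number of genes called in that comparison was 4218 and ran from 2771 (without Intermediate replicate 2) to 4227. The difference in the Actg2 share of the actins, SMC1 minus Intermediate, ran from -0.128 to 0.362 percentage points. The replicate block gave 4594 called genes in Intermediate minus Progenitor and 6945 in place of 6578 in SMC2 minus SMC1, where every library correlated best with its own number (6 of 6), a hint from the data only. Among the 10 genes the block changed the call of Actg2 in SMC2 minus SMC1 (-0.86, adjusted p = 0.0386) and no other. Without a filter on low counts the median of all genes was -0.34 in SMC1 minus Progenitor and 0.246 in SMC2 minus SMC1. The counts of Tagln (10 to 26) and Myocd (17 to 56) in Progenitor and Intermediate limit the precision of their changes.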
